A study of Mus musculus with 69 samples.

Results

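The genes described here encode 10 receptors by which phagocytes bind particles, lipids, antibody-coated targets and microbial products: the scavenger receptors Marco, Msr1, Cd36 and Scarb1, the mannose receptor Mrc1, the haemoglobin scavenger receptor Cd163, the Fc gamma receptors Fcgr1 and Fcgr3, and the pattern receptors Tlr2 and Cd14. They were chosen by name, and the array probes whose transcript accession belongs to each gene were taken, which gave 12 probes for the 10 genes among 17639 genes tested. Whole lung RNA was measured in 69 female C57BL/6 mice, 1 mouse per array, that were 5 to 7 weeks old on arrival and were acclimatised for 1 to 3 weeks. Each mouse had received a single intratracheal instillation of titanium dioxide nanoparticles at 18, 54 or 162 µg, either NRCWE-001, which carries no charge modification, or NRCWE-002, which is positively charged, and the lungs were taken 1 or 28 days later. The controls of each day received the vehicle alone, which the sample titles give as H2O and the design text as water with 2% serum. Every group held 5 mice except the vehicle group of day 28, which held 4.

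Phagocytes of the lung, chiefly the alveolar macrophages that lie on the airspace surface, take up deposited particles through receptors that recognise charged or lipid-coated surfaces. MARCO and MSR1 are class A scavenger receptors with a collagen-like stalk, CD36 and SCARB1 are class B receptors for lipids and lipoproteins, MRC1 binds mannose-bearing glycoproteins, and CD163 removes haemoglobin bound to haptoglobin. FCGR1 binds monomeric IgG with high affinity and FCGR3 binds immune complexes, and both signal through the gamma chain encoded by Fcer1g. TLR2 senses bacterial lipopeptides together with TLR1 or TLR6, and CD14 hands lipopolysaccharide and lipopeptides to the Toll-like receptors. Several of these genes are also expressed outside phagocytes, Cd36 strongly in capillary endothelium and Scarb1 in many epithelial and endothelial cells.

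From a table of RefSeq promoters (GRCm38.p6), windows of 7 of the 10 genes were used, and none of Cd14, Msr1 or Scarb1. Windows on 1 chromosome were not searched for the receptors, so a missing window does not show that the table lacks the gene. The shares over all windows given below kept that chromosome. In each window the 250 bases before the start were searched on both strands for 4 motifs. The motifs were GAS (TTCNNNGAA), the site of STAT dimers activated by interferon, PU.1 (GAGGAA), the site of the myeloid factor PU.1, AP-1 (TGANTCA) and the NF-kB site. A GAS match was found in 7.02% of 32851 windows, a PU.1 match in 23.25%, an NF-kB match in 7.251% and an AP-1 match in 6.749%. The sequences of Fcgr1 and Tlr2 are shown because a test over the NRCWE-001 doses called these genes on day 28. The Fcgr1 window lay on chromosome 3 at chr3:96293970-96294219, on the minus strand, and is read 5′ to 3′ towards the start. Its capitals mark a GAS match 109 to 101 bases before the start and, on the opposite strand, a PU.1 match 55 to 50 bases before it. The Tlr2 stretch lay at chr3:83841762-83841791, also on the minus strand, 183 to 154 bases before the listed start and inside a longer annotated transcript of the gene. Its capitals mark the bases covered by 3 overlapping NF-kB matches.
Fcgr1: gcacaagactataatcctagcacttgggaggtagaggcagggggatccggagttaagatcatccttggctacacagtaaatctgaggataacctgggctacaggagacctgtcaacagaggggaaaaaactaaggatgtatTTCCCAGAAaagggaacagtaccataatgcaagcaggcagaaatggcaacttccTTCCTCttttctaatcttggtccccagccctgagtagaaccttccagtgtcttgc
Tlr2: taggacacctGGGGAATTCCCacacggagc
Of the other windows, that of Marco held 1 PU.1 match, that of Mrc1 held 3, and those of Fcgr3 held 1 PU.1 and 1 NF-kB match each. The windows of Cd36 and Cd163 held none of the 4 motifs, and AP-1 was matched in none of the 7 genes. A match is a run of letters and no binding was measured.

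Each array compared a lung labelled with Cy5 with a common reference RNA labelled with Cy3, without dye swap, so that every value given is a log2 ratio of lung over reference and a ratio of one gene cannot be set against that of another. All 12 probes were well above background in the lung channel on all 69 arrays except for 2 of the 3 Msr1 probes, which were so on 48 and 65 arrays. The reference channel was well above background for Mrc1 on only 9 arrays and for Cd163 on 25, so the ratios of these genes rest on a dim denominator. Between any 2 arrays the correlation over genes ran from 0.777 to 0.991, with a median of 0.964 within groups and 0.960 between groups. On 4 arrays the median correlation with the other arrays was below 0.9. They were the 3 arrays of a single slide, which held replicate 2 of NRCWE-002 at 18, 54 and 162 µg on day 28, and replicate 2 of NRCWE-001 at 18 µg on day 1. Without these arrays the calls given below were kept, and Msr1 was called as well in the dose test of NRCWE-001 on day 28. Markers of alveolar type 2 cells were well above the reference in all vehicle and 162 µg lungs, with list means between 3.95 and 4.64.

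Cd14 was the receptor gene with a called difference between a dose and its vehicle, at 162 µg of either particle on day 1. The test over all 3 doses called Cd14 for NRCWE-002 on day 1, and Fcgr1 and Tlr2 for NRCWE-001 on day 28. Each had its largest difference at 162 µg. The day 28 calls did not hold throughout: with slide as a fixed block Tlr2 alone was called, and with the arrays of the same day alone 0 receptors were. No receptor was called at 18 or 54 µg on either day, where at most 0.193% (NRCWE-001 at 18 µg on day 28) and 0.0624% (NRCWE-002 at 54 µg on day 1) of all genes were called, and no receptor was called lower. With NRCWE-001 at 162 µg on day 1, 1 of the 10 receptors was called, beside 0.578% of all genes, and with NRCWE-002 1 of the 10, beside 0.595%. In both contrasts 2 receptors (Fcgr3 and Cd14) had an unadjusted p below 0.05, beside 7.08% and 8.93% of all genes. In the dose test of day 28, 2 of the 10 were called for NRCWE-001 beside 0.476% of all genes, and 4 were below 0.05 before adjustment, beside 9.02%. None was called for NRCWE-002, where limma called 0 genes in all and the unadjusted p of 2 receptors (Msr1 and Fcgr1) was below 0.05, beside 4.34% of all genes. The dose test of day 1 called 1 receptor for NRCWE-002 beside 0.822% of all genes (2 below 0.05 before adjustment, beside 7.79%), and 0 for NRCWE-001 beside 0.697%, where 2 receptors (Cd163 and Cd14) had an unadjusted p below 0.05 beside 7.87%. At 162 µg on day 28, limma called no receptor for NRCWE-001 (0.0454% of all genes) or for NRCWE-002 (0.00567%). Before adjustment, 6 of the 10 were below 0.05 for NRCWE-001, beside 8.63% of all genes, and 3 of the 10 for NRCWE-002, beside 6.71%. The median difference of the 10 genes at 162 µg was 0.18 for NRCWE-001 and 0.29 for NRCWE-002 on day 1, and 0.23 and 0.28 on day 28, while the median of all genes lay between -0.01 and 0.01.

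**Figure D1:**
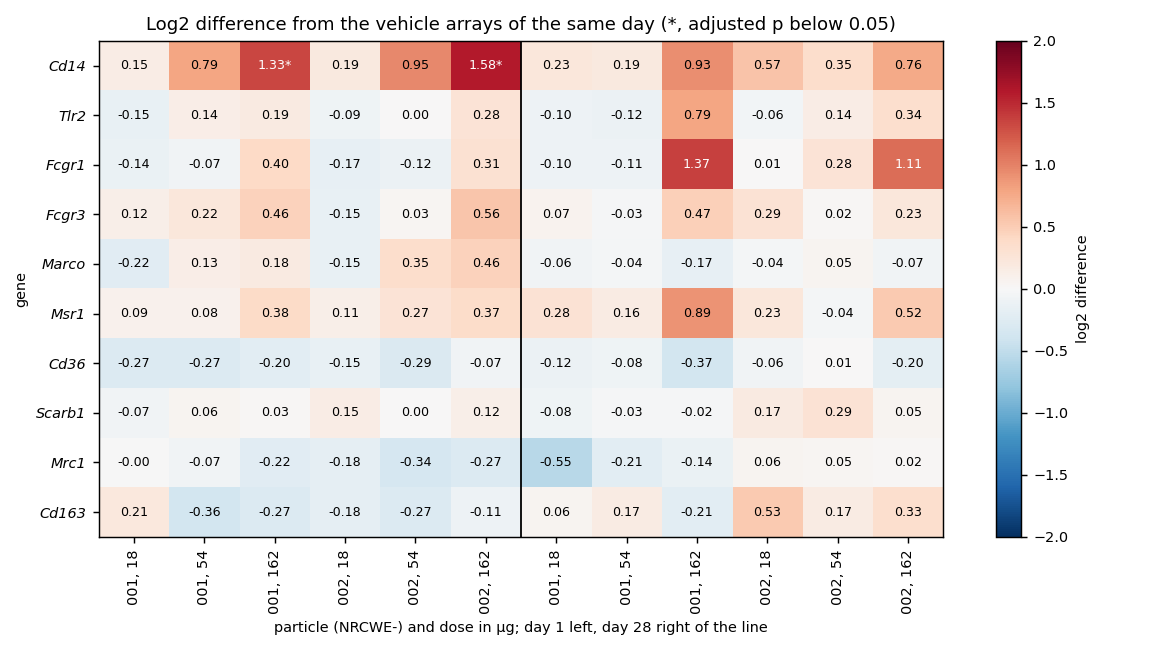
Log2 difference of each receptor gene (rows) between exposed lungs and the vehicle lungs of the same day, for each particle, dose in µg and day (columns), with the colour scale running from blue (lower) to red (higher). The 2 starred cells are Cd14 at 162 µg on day 1, at 1.33 and 1.58, and the unstarred cells of Fcgr1 at 162 µg on day 28 are at 1.37 and 1.11.

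Cd14, the co-receptor that binds lipopolysaccharide, was low and tightly grouped in the vehicle lungs of day 1, at log2 ratios of -1.55, -1.76, -1.74, -1.91 and -1.64. With NRCWE-002 at 162 µg the 5 lungs stood at -0.27, -0.05, -0.04, 0.18 and -0.52, all above every vehicle lung. With NRCWE-001 at 162 µg they stood at -0.07, -0.15, -0.18, 0.40 and -1.94, so that 4 were above every vehicle lung and replicate 5 was below every vehicle lung. Against the vehicle Cd14 rose 2.99-fold, or 1.58 ± 0.34 on the log2 scale (SE, 5 lungs per group), with NRCWE-002 (95% confidence interval 0.90 to 2.26, adjusted p = 0.0111) and by 1.33 ± 0.34, or 2.51-fold, with NRCWE-001 (limma, 0.65 to 2.01, adjusted p = 0.0489). Since whole lung was measured, more cells that express a gene and more RNA per cell cannot be told apart, here or for any other gene. At 54 µg of NRCWE-002 the 5 lungs (-0.69, -1.10, -0.64, -0.26 and -1.14) were again all above the vehicle lungs, as for 1.7% of all genes, but the difference of 0.95 ± 0.34 was not called (adjusted p = 0.56). At 54 µg of NRCWE-001 4 of the 5 lungs (-0.69, -0.47, -0.47 and -1.29) were above the vehicle lungs and the remaining lung was at -1.73, and the difference of 0.79 was not called (adjusted p = 0.944). The 18 µg lungs differed from the vehicle by 0.15 and 0.19 and overlapped it with either particle. In the test over doses the adjusted p was 0.0153 for NRCWE-002 and 0.076 for NRCWE-001.

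The Cd14 call for NRCWE-001 lay near the threshold. Removing any 1 array of the pair of groups ended it in 9 of 10 cases (adjusted p from 0.0768 without vehicle replicate 1 to 0.383 without exposed replicate 4), and without exposed replicate 5 the difference was 1.72 (adjusted p = 0.00094). The call for NRCWE-002 was lost without exposed replicate 2 (adjusted p = 0.053) or replicate 4 (adjusted p = 0.0558). Within slides that held both a 162 µg and a vehicle lung, Cd14 was higher by 1.47, 1.56 and 1.61 on the 3 slides for NRCWE-001 and by 1.60 and 1.63 on the 2 slides for NRCWE-002. Replicate 5 of NRCWE-001, the lung below every vehicle lung, shared no slide with a vehicle lung and could not enter this comparison. With slide as a fixed block the differences were 1.28 (adjusted p = 0.0148) and 1.63 (adjusted p = 0.0152).

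Day 28 gave a mixed picture for Cd14. The vehicle lungs were at -1.32, -1.26, -1.57 and -1.57, and the lungs given 162 µg of NRCWE-001 were at 0.17, -1.74, -1.13, 0.09 and 0.09. With NRCWE-002 they were at -1.58, 0.36, -1.73, 0.25 and -0.64. With NRCWE-001, 3 lungs were above zero and the other 2 were near or below the vehicle range, and with NRCWE-002, 3 lungs were above that range and 2 below it. The differences of 0.93 ± 0.36 and 0.76 ± 0.36 (SE, n = 5 and 4) were not called (adjusted p = 0.399 and 0.708).

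Tlr2, the lipopeptide receptor, showed little difference on day 1. The 5 vehicle lungs ran from 0.25 to 0.75, the lungs given 162 µg of NRCWE-001 from 0.57 to 1.08 and those given NRCWE-002 from 0.66 to 1.04, with overlap in both cases and differences of 0.19 and 0.28 (adjusted p = 0.999 and 0.787). On day 28 the vehicle lungs stood at 0.34, 0.25, 0.57 and 0.44 and the lungs given 162 µg of NRCWE-001 at 1.61, 0.53, 0.18, 1.80 and 1.81. Replicates 1, 4 and 5 were more than 1 log2 unit above the highest vehicle lung and replicates 2 and 3 were not above it. Tlr2 changed with NRCWE-001 dose on day 28 (F-test, adjusted p = 0.0178), with mean ratios of 0.40, 0.30, 0.28 and 1.19 from vehicle to 162 µg. The call was kept with slide as a fixed block (adjusted p = 0.0144) and lost with median centring (adjusted p = 0.0564) and with the arrays of the same day alone. The 162 µg group taken alone differed by 0.79 ± 0.21, or 1.72-fold, which was not called (adjusted p = 0.158). With NRCWE-002 the lungs were at 0.58, 1.10, 0.19, 0.85 and 0.99, 4 of them above the vehicle range, and the difference was 0.34 (adjusted p = 0.798).

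**Figure D2:**
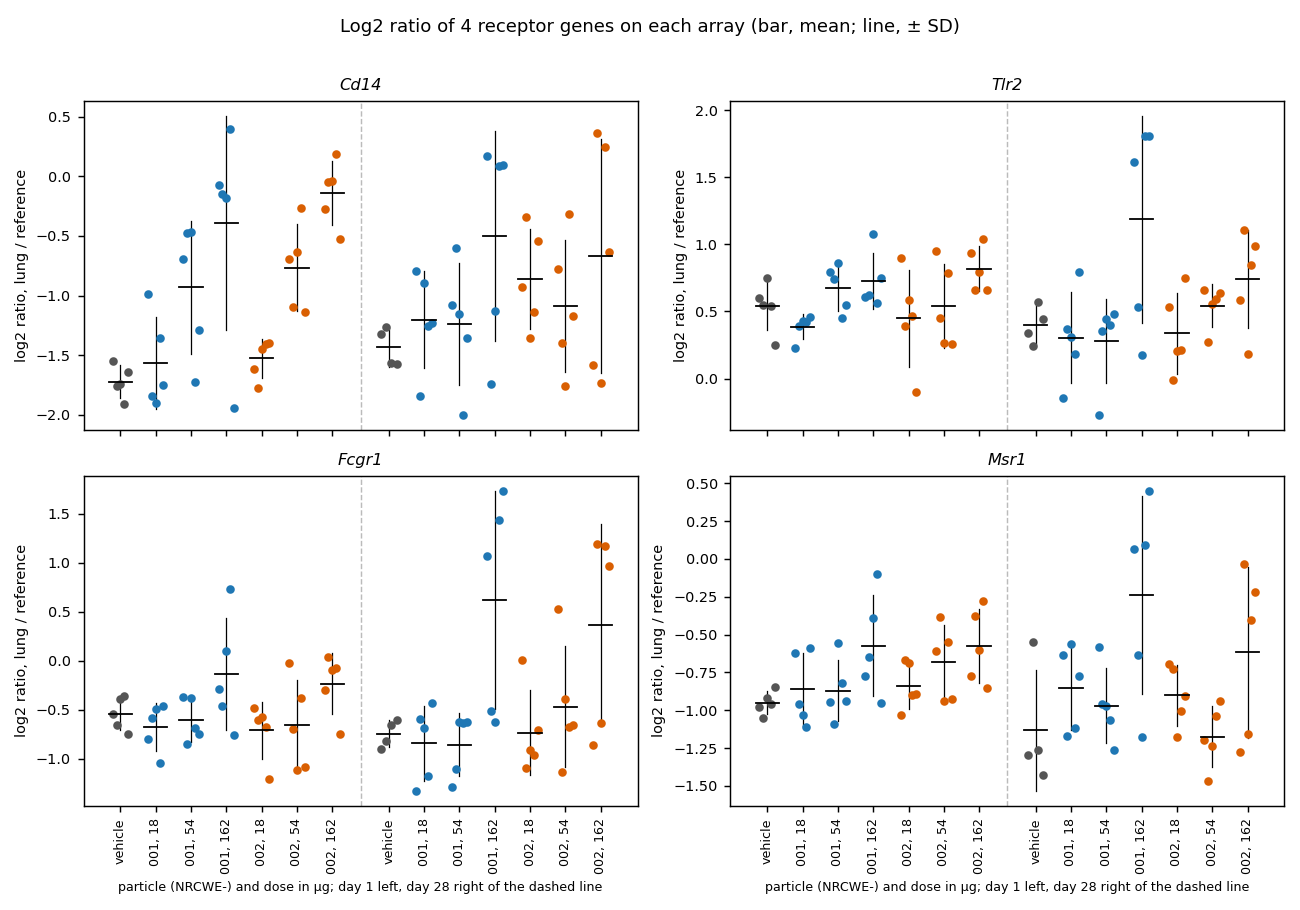
Log2 ratio of lung over reference RNA (y axis) of Cd14, Tlr2, Fcgr1 and Msr1 on every array, by particle and dose in µg (x axis), with day 1 left and day 28 right of the dashed line, grey points for vehicle, blue for NRCWE-001 and orange for NRCWE-002. The black bar is the group mean and the line its SD, and at 162 µg on day 28 the points of Fcgr1 split into lungs above 0.9 and lungs below -0.5 with either particle.

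Fcgr1, the high-affinity IgG receptor, gave the largest differences of day 28. The vehicle lungs were at -0.90, -0.82, -0.66 and -0.61. The lungs given 162 µg of NRCWE-001 were at 1.07, -0.52, -0.62, 1.44 and 1.73, and those given NRCWE-002 at -0.86, 1.19, -0.63, 1.17 and 0.97. In each group 3 lungs were thus at or above 0.97 and the other 2 lay within the vehicle range or within 0.1 of it. The test over NRCWE-001 doses called Fcgr1 on day 28 (F-test, adjusted p = 0.0165). Its group means were -0.84, -0.86 and 0.62 at 18, 54 and 162 µg beside -0.75 in the vehicle. This call was lost with slide as a fixed block (adjusted p = 0.0655) and with the arrays of the same day alone, and kept with slide as a random block (adjusted p = 0.00692). The 162 µg difference was 1.37 ± 0.35, or 2.58-fold, for NRCWE-001 (95% interval 0.66 to 2.07, adjusted p = 0.128) and 1.11 ± 0.35 for NRCWE-002 (0.41 to 1.82, adjusted p = 0.492), neither of them called. The F-test, these SEs and these intervals rest on a spread estimated over all groups, not on these split lungs alone. In the lower NRCWE-002 dose groups of day 28, replicate 1 was the highest lung, at 0.01 for 18 µg and 0.52 for 54 µg, while the others ran from -1.14 to -0.39. On day 1 the lungs given 162 µg ran from -0.76 to 0.73 and from -0.75 to 0.04 against -0.75 to -0.36 in the vehicle, with differences of 0.40 and 0.31 that were not called.

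Fcgr3, the receptor for IgG complexes, was higher on day 1 in every lung given 162 µg of NRCWE-002 (0.81, 0.78, 0.82, 1.05 and 0.65) than in every vehicle lung (0.26, 0.41, 0.29, 0.37 and -0.02), as for 3.54% of all genes. Its difference of 0.56 ± 0.19 was nevertheless not called (adjusted p = 0.213). With NRCWE-001 the lungs were at 0.81, 0.55, 0.70, 1.18 and 0.36, of which 4 were above the vehicle range, and the difference was 0.46 (adjusted p = 0.492). On day 28 the vehicle lungs were at 0.28, 0.70, 0.39 and 0.21, and the NRCWE-001 lungs at 162 µg were at 1.53, 0.07, 0.41, 1.05 and 1.25. Replicates 1, 4 and 5 were again the highest. The difference was 0.47 for NRCWE-001 and 0.23 for NRCWE-002 (adjusted p = 0.47 and 0.876).

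The split of the 162 µg lungs on day 28 ran through several of the receptors. With NRCWE-001, replicates 1, 4 and 5 were the 3 highest lungs for Cd14, Tlr2, Fcgr1, Fcgr3 and Msr1. With NRCWE-002, replicates 2, 4 and 5 were the 3 highest for Cd14, Tlr2, Fcgr1 and Msr1. Replicate 2 of NRCWE-002 lay on the slide that stood apart, and its median correlation with the other arrays was the lowest (0.852). It is counted below among the lungs with high Fcgr1. The dose tests of Fcgr1 and Tlr2 for NRCWE-001 were lost when replicate 1, 4 or 5 at 162 µg was left out, and without replicate 2 or without replicate 3 the 162 µg contrast called 3 receptors, Msr1, Fcgr1 and Tlr2. Without replicate 3 their differences were 1.13, 1.68 and 1.04 (adjusted p = 0.00222, 0.0104 and 0.00387). For NRCWE-002, leaving out replicate 1 gave a call of Fcgr1 at 1.42 (adjusted p = 0.0478). Replicate 1 of the NRCWE-001 group shared a slide with a vehicle lung and exceeded it by 1.89 for Fcgr1, 1.37 for Tlr2 and 1.43 for Cd14. Replicates 1 and 3 of the NRCWE-002 group shared slides with vehicle lungs and differed from them by at most 0.05 for Fcgr1. On the slide of replicate 1, the NRCWE-002 lungs of 18 and 54 µg exceeded the same vehicle lung by 0.91 and 1.43. On the slide of replicate 3 the lungs of these doses differed from it by -0.30 and 0.21.

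**Figure D3:**
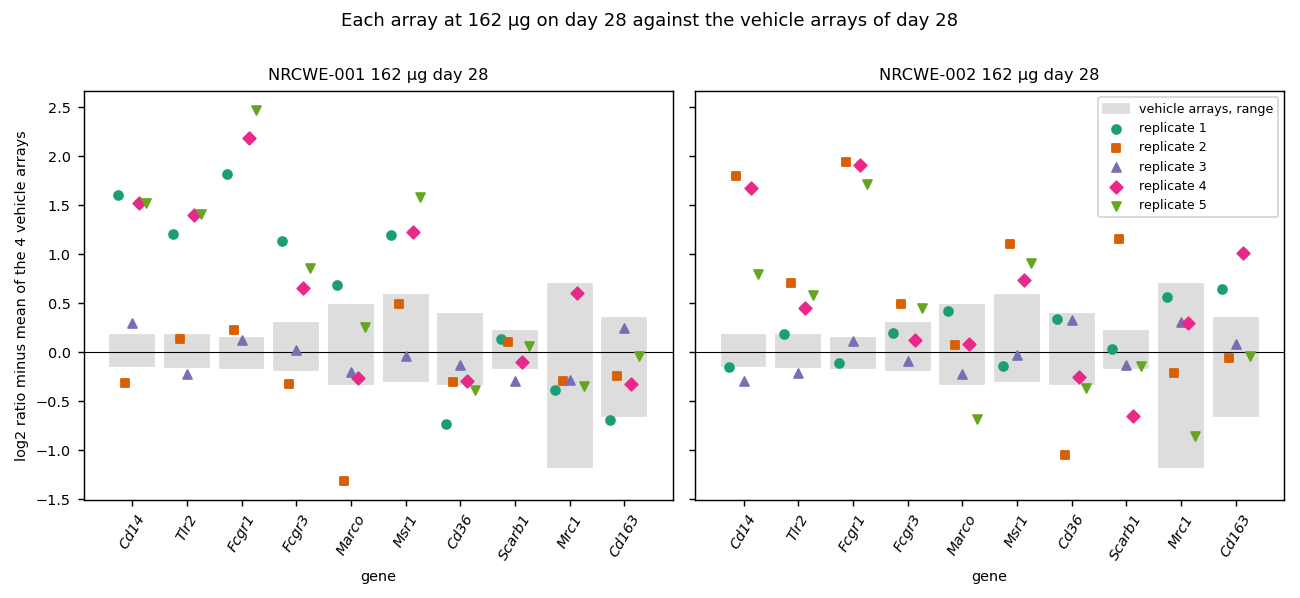
Log2 ratio of each lung given 162 µg on day 28 minus the mean of the 4 vehicle lungs of day 28 (y axis), for the 10 receptor genes (x axis), NRCWE-001 left and NRCWE-002 right, with a symbol per replicate and grey blocks for the range of the vehicle lungs. The points of Fcgr1 lie above 1.5 for 3 lungs of each particle and within 0.3 of zero for the other 2.

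Other markers moved with the same lungs. The mean log2 ratio of 9 markers of monocytes and tissue macrophages, all measured, was 1.34 to 1.64 in the vehicle lungs of day 28. It was 1.87, 1.23, 1.55, 2.36 and 2.19 with NRCWE-001 at 162 µg and 1.64, 2.27, 1.43, 2.10 and 2.03 with NRCWE-002, so that the lungs with high Fcgr1 were also the highest for this list. None of the 9 was called, while 5 and 4 of them had an unadjusted p below 0.05 and a higher ratio, beside 3.95% and 2.98% of all genes, among them Ly6c2 at 0.65 and 0.71 and C1qa at 0.58 and 0.76. Markers of alveolar macrophages had list means of 2.99, 2.68, 3.09 and 3.08 in the vehicle lungs, 3.22, 2.42, 2.96, 2.89 and 2.66 with NRCWE-001 and 3.24, 2.44, 2.93, 2.37 and 2.29 with NRCWE-002. With NRCWE-002 the 3 lungs with high Fcgr1 were the lowest for this list and below every vehicle lung, and with NRCWE-001 replicates 2 and 5 were below every vehicle lung.

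Neutrophil markers were at 1.72, 1.96, 1.68 and 1.68 in the vehicle lungs of day 28, 1.98, 1.35, 1.71, 2.20 and 1.82 with NRCWE-001 at 162 µg and 2.06, 1.43, 1.79, 1.48 and 1.31 with NRCWE-002. The lungs with high Fcgr1 were thus the highest of their group for this list with NRCWE-001, and with NRCWE-002 they were the lowest and below every vehicle lung. Endothelial markers were at 5.05, 4.75, 4.91 and 4.91 in the vehicle lungs, 4.33, 4.21, 4.76, 4.62 and 4.49 with NRCWE-001 and 5.08, 4.55, 4.89, 4.57 and 4.38 with NRCWE-002. All 6 lungs with high Fcgr1, and replicate 2 of NRCWE-001, were below every vehicle lung for this list. Cardiac muscle markers also differed between lungs, at 3.22, 0.84, 0.69 and 0.62 in the vehicle, 0.58, 0.68, 3.32, 2.47 and 0.21 with NRCWE-001 and 2.73, 3.87, 2.53, 4.16 and 2.98 with NRCWE-002. With NRCWE-001 the highest cardiac value was that of replicate 3, a lung with low Fcgr1, and with NRCWE-002 the 3 lungs with high Fcgr1 were also the highest for this list. The part of macrophages, cardiac tissue or any other cell type in the receptor values was not tested.

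On day 1 the lists moved differently. Neutrophil markers had list means of 1.52 to 2.13 in the vehicle lungs, 1.69 to 2.74 with NRCWE-001 at 162 µg and 1.86 to 2.40 with NRCWE-002. Cxcr2 (0.69, adjusted p = 0.0201) and Csf3r (0.80, adjusted p = 0.0272), both receptors that neutrophils carry, rose with NRCWE-001 at 162 µg, where 0.578% of all genes were called. Of 8 measured neutrophil markers the dose test of day 1 called only these 2 for NRCWE-001, beside 0.697% of all genes. For NRCWE-002 it called 0 of the 8, beside 0.822%. Replicate 5 of NRCWE-001, the lung with low Cd14, had the lowest neutrophil mean of its group at 1.69. The same lung had the highest alveolar macrophage mean of its group, at 2.84, within the vehicle range. Of 8 measured alveolar macrophage markers, Siglecf (-0.92) and Ear1 (-1.30) fell with NRCWE-001 at 162 µg (adjusted p = 0.0498 for each). The dose test of day 1 called these 2 of the 8 for NRCWE-002 and 0 for NRCWE-001, while the 162 µg differences of NRCWE-002 were -0.84 for Siglecf and -1.10 for Ear1 and were not called (adjusted p = 0.0868 and 0.132). The list means were 2.61 to 3.12 in the vehicle lungs, 2.00 to 2.84 with NRCWE-001 and 2.47 to 3.15 with NRCWE-002. The part of these cells in the Cd14 difference was not tested.

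Msr1, the class A scavenger receptor also called SR-A, was measured by 3 probes. On day 28 the vehicle lungs were at -1.30, -0.55, -1.26 and -1.43, and the lungs given 162 µg of NRCWE-001 were at 0.07, -0.64, -1.18, 0.09 and 0.45. Replicates 1, 4 and 5 were above the vehicle range, and vehicle replicate 2 stood apart from the other vehicle lungs. The difference of 0.89 ± 0.21, or 1.86-fold, was not called (adjusted p = 0.113), nor was the test over doses (adjusted p = 0.0601). Without vehicle replicate 2 the difference was 1.09 (adjusted p = 0.0423). The 3 probes differed by 1.30, 0.72 and 0.83, and with the signals as processed by the scanner software the gene's difference was 2.27 (adjusted p = 0.106). With NRCWE-002 the lungs were at -1.27, -0.03, -1.16, -0.40 and -0.22 and the difference was 0.52 (adjusted p = 0.661). On day 1, 4 of 5 lungs given 162 µg of either particle were above every vehicle lung, with differences of 0.38 and 0.37 that were not called (adjusted p = 0.767 and 0.623). The 3 probes, in the same order, differed on day 1 by 0.81, 0.26 and 0.69 with NRCWE-001 and by 0.82, 0.35 and 0.60 with NRCWE-002. None was called (limma over probes, lowest adjusted p = 0.245). The probe with the smallest differences was well above background on 48 arrays.

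Marco, the class A scavenger receptor of alveolar macrophages that binds unopsonised particles, was spread widely within groups. The vehicle lungs of day 1 ran from 4.35 to 5.17 and the lungs given 162 µg from 4.14 to 5.73 with NRCWE-001 and from 4.81 to 5.54 with NRCWE-002. The differences were 0.18 (95% interval -0.39 to 0.74) and 0.46 (-0.10 to 1.02), neither called. On day 28 they were -0.17 (-0.76 to 0.43) and -0.07 (-0.66 to 0.53), and replicate 2 of NRCWE-001 was the lowest of all 69 arrays at 3.42. Within slides that held both a 162 µg and a vehicle lung, Marco was higher on day 1 with either particle. The excess was 0.30 to 0.65 on the 3 slides for NRCWE-001, and 0.69 and 1.11 on the 2 slides for NRCWE-002. On day 28 the 1 slide for NRCWE-001 gave 1.01, and the 2 slides for NRCWE-002 gave -0.10 and 0.46. All the intervals of Marco given here include zero, and that of NRCWE-002 on day 1 reaches up to 1.02. The size of difference that these numbers of lungs could detect was not computed.

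The class B receptors varied least between groups. The group means of Cd36 spanned 0.42 and those of Scarb1 0.37, against 1.58 for Cd14 and 1.48 for Fcgr1. Cd36, the fatty acid and oxidised lipid receptor, was lower than its vehicle in 11 of the 12 exposed groups, by at most 0.37, and no difference was called. These 12 contrasts share their vehicle lungs within a day and are not independent. The largest, with NRCWE-001 at 162 µg on day 28, came from lungs at 3.50, 3.93, 4.11, 3.94 and 3.85 against 4.07, 3.91, 4.35 and 4.62 in the vehicle (adjusted p = 0.573). In the same lungs the endothelial markers had list means of 4.21 to 4.76 against 4.75 to 5.05 in the vehicle, with 5 of 7 genes lower at an unadjusted p below 0.05, beside 4.68% of all genes, and none called. The part of endothelial RNA in Cd36 was not tested.

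Scarb1, the receptor for high-density lipoprotein, was within 0.29 of its vehicle in every exposed group. Its 3 highest values, 1.39, 1.47 and 1.62, were those of the 3 arrays of the slide that stood apart, while the arrays of the other slides ran from -0.42 to 0.91 with a median of 0.27. Without the arrays that stood apart the NRCWE-002 differences of day 28 were -0.09, 0.01 and -0.22 at 18, 54 and 162 µg in place of 0.17, 0.29 and 0.05.

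Cd163, the haemoglobin scavenger receptor, was lower in all 5 lungs given 54 µg of NRCWE-001 on day 1 (1.22, 1.38, 1.39, 1.20 and 1.10) than in the vehicle lungs (1.63, 1.45, 1.86, 1.44 and 1.71), as for 1.18% of all genes. The difference of -0.36 was not called (adjusted p = 0.999), and the dose test gave an adjusted p of 0.583. With slide as a fixed block the dose test called Cd163 (adjusted p = 0.0289), as it did with slide as a random block (adjusted p = 0.0373). At 162 µg of NRCWE-001 4 lungs lay between 1.17 and 1.20, below the vehicle range, and replicate 4 was at 2.01, above it. With NRCWE-002 at 18 µg on day 28 the lungs were at 2.24, 1.77, 1.19, 2.10 and 1.46 against 1.57, 0.57, 1.43 and 1.31 in the vehicle (0.53, adjusted p = 0.792).

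Mrc1, the mannose receptor, ran from 2.10 to 3.97 in the 4 vehicle lungs of day 28 and from 3.06 to 3.63 in the 5 of day 1. Its largest difference was -0.55 with NRCWE-001 at 18 µg on day 28 (95% interval -1.15 to 0.05, adjusted p = 0.668), where the lungs were at 1.93, 3.40, 2.95, 2.46 and 2.86. All 6 differences of day 1 were negative, down to -0.34 with NRCWE-002 at 54 µg, and none was called.

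**Figure D4:**
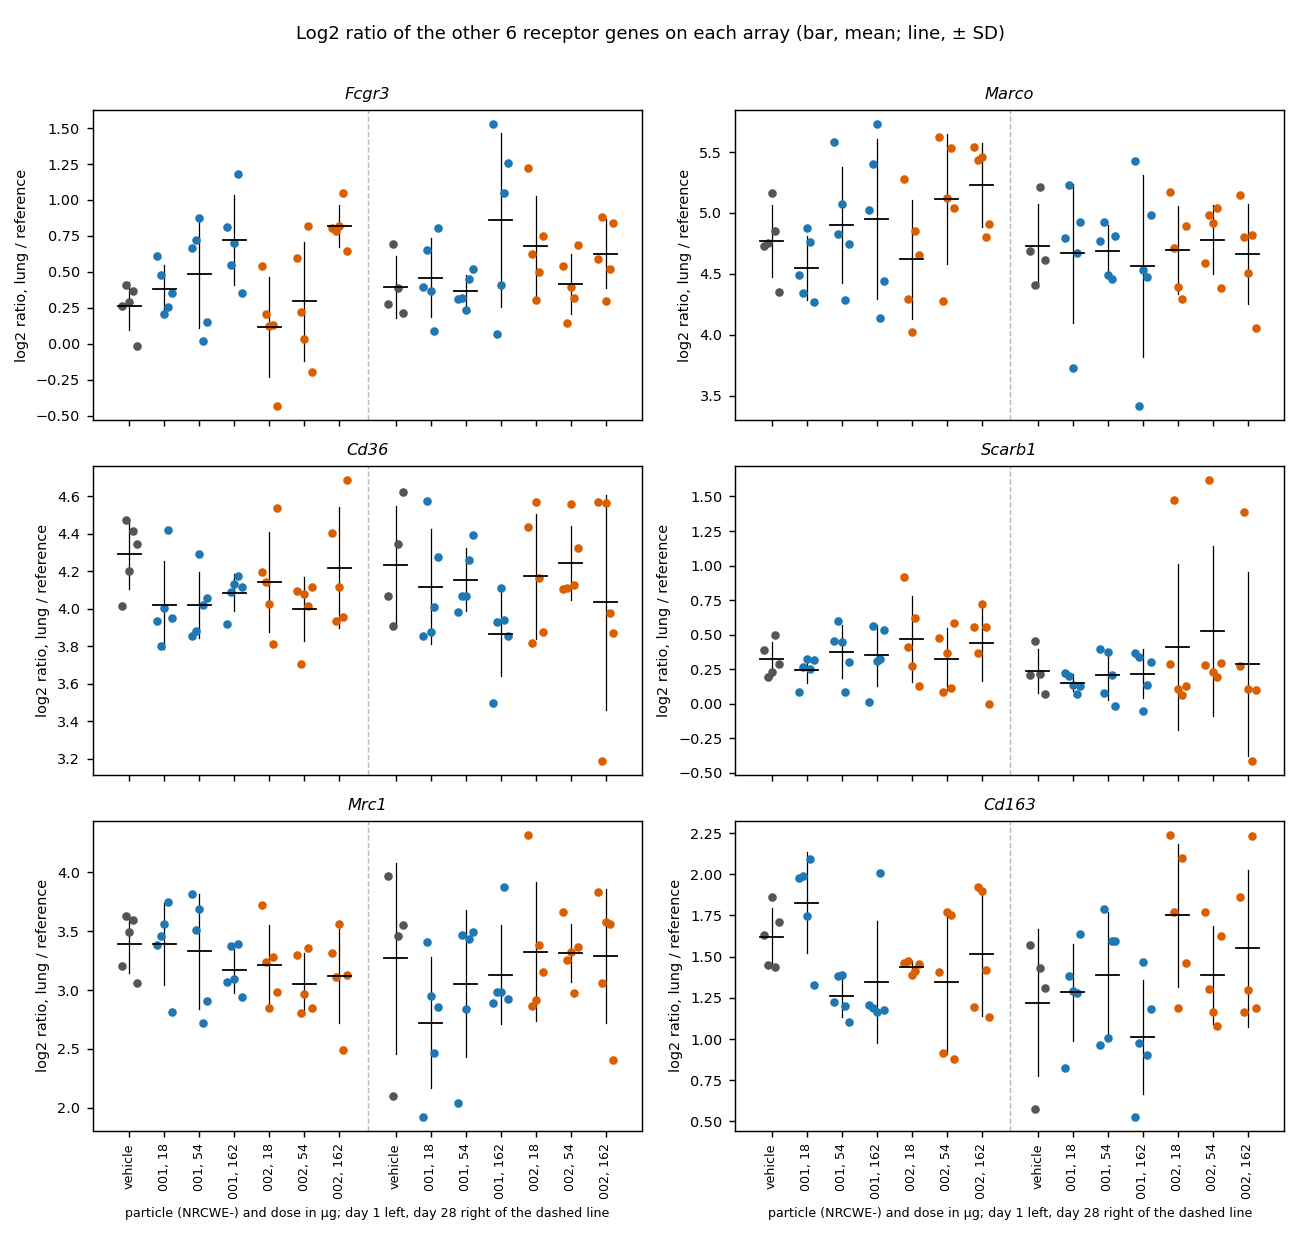
Log2 ratio of lung over reference RNA (y axis) of Fcgr3, Marco, Cd36, Scarb1, Mrc1 and Cd163 on every array, by particle and dose in µg (x axis), with day 1 left and day 28 right of the dashed line, grey for vehicle, blue for NRCWE-001 and orange for NRCWE-002, with the group mean as a bar and its SD as a line. The 3 isolated Scarb1 points between 1.39 and 1.62 are the arrays of the slide that stood apart.

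The charged and uncharged particles were compared at matched doses and over the mean of the 3 doses. Over the mean, limma called 0 of the 10 receptors on day 1, beside 0.125% of all genes, and 0 had an unadjusted p below 0.05, beside 7.32%. For Cd14 at 162 µg the difference of NRCWE-002 over NRCWE-001 was 0.25 (95% interval -0.43 to 0.93). On day 28 no receptor was called, beside 4.75% of all genes, and 2 receptors had an unadjusted p below 0.05, beside 22.2%. Cd163 was at 0.34 (0.09 to 0.58, adjusted p = 0.0875) and Mrc1 at 0.34 (0.01 to 0.67, adjusted p = 0.205), with the higher ratio in NRCWE-002 lungs. Of 11 slides with exposed lungs of day 28, 2 held both particles. With slide as a fixed block the values were 0.07 for Cd163 and -0.10 for Mrc1, and with scan day as a block -0.03 and -0.21. At 162 µg on day 28 the difference of NRCWE-002 over NRCWE-001 was -0.44 for Tlr2 (interval -0.85 to -0.04, adjusted p = 0.568) and -0.25 for Fcgr1 (-0.92 to 0.41, adjusted p = 0.859), neither called.

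The 162 µg difference from vehicle was also compared between the days. By limma 0 genes were called for either particle. Before adjustment 1 receptor, Tlr2 with NRCWE-001, was below 0.05, beside 4.34% of all genes, and 0 receptors with NRCWE-002, beside 6.7%. The NRCWE-001 difference of day 28 exceeded that of day 1 by 0.96 for Fcgr1 (95% interval -0.01 to 1.93), by 0.60 for Tlr2 (0.01 to 1.19) and by 0.51 for Msr1 (-0.07 to 1.10). For Cd14 the day 28 minus day 1 value was -0.40 for NRCWE-001 (-1.40 to 0.59) and -0.81 for NRCWE-002 (-1.81 to 0.18). Between the vehicle lungs of day 28 and day 1 limma called 0 genes, and 0 of the 10 receptors were below 0.05 before adjustment, beside 5.77% of all genes, with the largest value for Cd163 at -0.40 (-0.85 to 0.05, adjusted p = 0.839).

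Lists of partner genes, counted whole, gave few differences. Of 11 Fc receptor partners, all measured, none was called at 162 µg on either day. With NRCWE-001 on day 28 3 of them had an unadjusted p below 0.05, all higher, beside 3.95% of all genes, namely the signalling chain Fcer1g (0.65, adjusted p = 0.343), the inhibitory receptor Fcgr2b (0.59, adjusted p = 0.336) and the activating receptor Fcgr4 (0.59, adjusted p = 0.196). The list's median differences were 0.21 and 0.18 for NRCWE-001 on day 1 and day 28 and 0.10 and 0.19 for NRCWE-002. Of 16 Toll-like receptor partners none was called. Myd88, the adaptor of most Toll-like receptors, differed by 0.33 and 0.35 at 162 µg on day 1 (adjusted p = 0.517 and 0.355), and the list's medians lay between 0.05 and 0.11. Of 18 other scavenger receptors 16 were measured and none was called, with medians between -0.02 and 0.00. The medians of that list were within 0.02 of zero, as were those of all genes.

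The likeness of the receptors to each other and to other genes across the 69 arrays is given as a description, since the arrays share groups, slides and the reference. Among the 45 pairs of receptors the correlation ran from -0.57 for Msr1 with Cd36 to 0.82 for Fcgr1 with Tlr2, with a median of 0.10, and 11 pairs exceeded 0.5. The most similar genes of Fcgr1 among 17525 were Dhx58 and Ifit3 (r = 0.91 for each), which are induced by interferon. Ifit3 stood at 2.03 to 2.19 in the vehicle lungs of day 28, at 3.11, 1.91, 2.13, 3.39 and 3.42 with NRCWE-001 at 162 µg and at 1.90, 3.50, 2.27, 3.54 and 3.44 with NRCWE-002, high in the same lungs as Fcgr1. Because Ifit3 was picked by its correlation over arrays that include these lungs, this match is not a separate result. The most similar genes of Cd14 were Pigr, the polymeric immunoglobulin receptor of epithelium, and Noxo1, a NADPH oxidase organiser (r = 0.87 for each). For Tlr2 they were Csf2rb2 (0.86) and Fcgr1 (0.82), for Fcgr3 Csf2rb2 and Fcgr2b (0.83 for each) and for Msr1 Gla (0.85), the lysosomal alpha-galactosidase, and Lilrb4a (0.82). Cd36 was most like Tek (0.79), the endothelial angiopoietin receptor, and Tspan2 (0.77), and Scarb1 like Ctu2 (0.85) and Slc39a13 (0.83). Both Ctu2 and Slc39a13 were also high, at 1.18 and 0.59, on the 162 µg array of the slide that stood apart. Marco was most like F7 and Mgl2 (0.71 for each), Mrc1 like Car8 (0.83) and Sh2d4a (0.81), and Cd163 like Oxnad1 (0.69) and Lratd1 (0.68).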

How the data were processed

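Each of the 69 arrays (Agilent 4x44K mouse design, annotation mm9) was scanned by the authors and read with Agilent Feature Extraction 11.0.1.1, and the deposited scanner files hold spot intensity in both channels and flags for outliers, saturation and signal well above background as scores of 0 or 1. The deposited series table holds the authors' log2 ratios of lung (Cy5) over reference (Cy3), normalised by LOWESS and summarised by the median over repeated spots. Its column medians lay between -0.0586 and -0.0026, and its direction and log2 scale were checked against the scanner values, with which the ratios computed here correlated at 0.988 to 0.996 (r per array).

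Median intensities were corrected by normexp with an offset of 50 and normalised by loess within arrays (limma 3.58.1 in R 4.3.3), with control and outlier spots at weight 0. Very bright local backgrounds (beyond 10 median absolute deviations) were kept out of the normexp fit. This was introduced on seeing the data, as without it the ratios of 4 arrays had a correlation under 0.97 with those deposited. Of 41174 probes, 27479 matched a RefSeq symbol by accession. Probes well above background in the lung channel on at least 4 arrays were kept, and a gene's value was the median of its probes. This gave 17639 genes, 11364 of them from 1 probe. The share of spots well above background was 61.4% to 87.8% in the lung channel, no spot was saturated, and the number of arrays limits the precision.

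Groups came from the sample labels, and replicate numbers are names in accession order that pair no samples. A single limma fit with 14 group means tested each dose against the vehicle of its day, the particles, the days, and, by moderated F-test, the 3 doses of each particle and day together. Its tests, SEs and intervals rest on a spread that all groups share, not on the compared groups alone. P-values were adjusted by Benjamini-Hochberg over all genes within each test and called at an adjusted p below 0.05. The test code was run on data with known answers. All 10 receptors were described in every group, and called genes of 3 partner lists and, for each receptor, the 2 most correlated genes were named. Partner and marker genes that were not called were named after their values were seen. The members and lists were chosen with earlier results of these data known. Alternatives were slide (18 slides) and scan day (12 days) as blocks, the authors' log2 table, other background, normalisation and filter settings, arrays of the same day alone, each array left out, and, added after the data were examined, the 4 arrays that stood apart left out.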

Additional observations from a re-analysis of the deposited data

Results flagged for a closer look

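Within each group of 4 or 5 lungs, the highest and lowest value of each receptor was compared with the gap to its nearest neighbour by Dixon's criterion. Of 140 combinations of receptor and group tested, 11 held a lung that stood apart, where chance gives about 1 in 20 for independent tests. These combinations share their lungs between receptors and are not independent, so that share is only a rough guide. Scarb1 stood high in NRCWE-002 replicate 2 of day 28 at 54 µg (1.62) and at 18 µg (1.47), both on the slide whose arrays stood apart, and low in NRCWE-001 replicate 1 at 18 µg on day 1 (0.0827). Tlr2 stood low in NRCWE-001 replicate 1 at 18 µg on day 1 (0.22), in NRCWE-002 replicate 2 at 54 µg on day 28 (0.27) and in NRCWE-001 replicate 1 at 54 µg on day 28 (-0.27).

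Cd14 stood low in NRCWE-001 replicate 5 at 162 µg on day 1 (-1.94), where the other lungs of the group ran from -0.18 to 0.40. Cd163 stood high in NRCWE-001 replicate 4 at 162 µg on day 1 (2.01) beside 1.17 to 1.20 in the others, and Mrc1 in NRCWE-001 replicate 4 at 162 µg on day 28 (3.88) beside 2.89 to 2.99. Fcgr1 stood low in NRCWE-002 replicate 5 at 18 µg on day 1 (-1.21), and Cd36 in NRCWE-002 replicate 2 at 54 µg on day 1 (3.70). The cause of these values was not tested.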

How the results depend on the processing

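Of the 162 µg differences of Cd14, Fcgr1, Msr1 and Tlr2 recomputed under every alternative, none changed sign. The particle differences of Mrc1 and Cd163 on day 28 did: Mrc1 (0.34) was -0.10 with slide and -0.21 with scan day as a fixed block, and Cd163 (0.34) was -0.03 with scan day. The dose test of NRCWE-001 on day 1 called 2 receptors (Cd163 and Cd14) with slide as a fixed or random block and 1 (Cd14) with scan day as a block or with arrays of the same day alone, in place of 0. The dose test of NRCWE-001 on day 28 called 1 (Tlr2) with slide as a fixed block and 0 with arrays of the same day alone, in place of 2. At 162 µg of NRCWE-001 on day 1 the Cd14 call was lost (0 called) with median centring (adjusted p = 0.0871) and without a filter on dim probes (adjusted p = 0.051), and at 54 µg of NRCWE-002 on day 1 it was gained (1 called) with slide as a fixed block (adjusted p = 0.0467) or random block (adjusted p = 0.034). The authors' log2 table called 1 receptor, Cd163, between the particles on day 28 (0.41, adjusted p = 0.0375). The cause of these changes was not tested. With single arrays left out, the number called ran from 0 to 1 for the dose tests of day 1, for 162 µg of either particle on day 1, for 162 µg of NRCWE-002 on day 28 and for the particles on day 28, and from 0 to 3 for the dose test and the 162 µg contrast of NRCWE-001 on day 28. Over all genes, the particle comparison of day 28 called 837 genes, but 4 with slide and 5 with scan day as a fixed block. With median centring the median of all genes was -0.13 in the day comparison of NRCWE-002, in place of -0.02. No paired analysis was possible because the replicate numbers only name the lungs, while slides with lungs of both groups gave the within-slide differences and the slide block.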
